A study of Mus musculus with 282 samples.

Results

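Ly6a, Ly6c1, Ly6e and Ly6h encode small surface proteins of the Ly6 family. The members were chosen by gene name in the transcript assembly, and all 4 were present as gene rows, with 19 transcripts between them, out of 14079 genes and 51024 transcripts in the table. Expression was measured by RNA sequencing of whole hypothalamus from male mice on a high fat, high sugar diet. The strain was the group, with no control diet or second sex among the samples. All but 1 of 282 mice had a strain. They came from 99 strains: 25 inbred strains (71 mice) and 4 sets of recombinant inbred strains, each bred from C57BL/6 and 1 other parent, namely AXB/BXA from A/J (18 strains, 47 mice), BXD from DBA/2J (43 strains, 126 mice), BXH from C3H/HeJ (6 strains, 16 mice) and CXB from BALB/c (7 strains, 21 mice). CXB was bred from sister substrains of BALB/cJ and C57BL/6J, which stood in for its parents here. Of the strains, 85 had 3 mice, 12 had 2 mice and 2 had 1 mouse. The labels give neither age nor litter, so the p-values measure only the spread between mice of a strain.

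Proteins of the Ly6 and uPAR family share a compact fold of finger-like loops held together by disulfide bonds between cysteines, and most are tethered to the cell surface by a GPI anchor. Ly6a, known as Sca-1, marks blood stem cells and is found on endothelium, Ly6c1 is found on brain endothelium, Ly6e is induced by interferon, and Ly6h is made by neurons and binds nicotinic acetylcholine receptors. In the mouse the Ly6 genes lie in a cluster on chromosome 15. A recombinant inbred strain carries, at each place in the genome, the sequence of 1 of its parents, so a level set by a single place in the genome can fall near either parent.

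The 4 genes lay within a small stretch of chromosome 15 (mm10). Ly6e spanned chr15:74954886-74960054 on the plus strand, Ly6a chr15:74994815-74998218 on the minus strand, Ly6c1 chr15:75045017-75048837 on the minus strand and Ly6h chr15:75564745-75567255 on the minus strand. Each had 3 coding exons in its GENCODE M21 transcript. The middle coding exon of each is shown to make the shared cysteine pattern and the closeness of Ly6a to Ly6c1 visible. Capitals mark the cysteine codons in the reading frame, and each sequence is the mm10 reference (C57BL/6J), written 5′ to 3′ on the coding strand.
Ly6a, chr15:74996452-74996568, minus strand: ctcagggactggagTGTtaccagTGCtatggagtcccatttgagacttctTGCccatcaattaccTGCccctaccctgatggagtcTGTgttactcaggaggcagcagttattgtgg
Ly6c1, chr15:75047353-75047469, minus strand: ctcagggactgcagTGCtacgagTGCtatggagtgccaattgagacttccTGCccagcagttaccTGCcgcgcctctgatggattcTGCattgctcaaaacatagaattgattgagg
Ly6e, chr15:74958269-74958388, plus strand: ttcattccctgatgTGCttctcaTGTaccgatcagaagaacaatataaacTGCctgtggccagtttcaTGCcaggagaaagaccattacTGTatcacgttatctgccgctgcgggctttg
Ly6h, chr15:75565583-75565699, minus strand: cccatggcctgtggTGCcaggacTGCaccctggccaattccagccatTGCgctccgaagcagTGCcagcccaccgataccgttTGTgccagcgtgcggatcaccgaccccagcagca

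Each of these exons held 5 cysteine codons, and all were 117 coding bases long except that of Ly6e, with 120. Over the whole coding sequence Ly6a and Ly6c1 were identical at 81.8% of aligned positions, against 49.8% to 53.0% for the other pairs. The 2 genes that resemble each other also resemble further Ly6 genes, which bears on how reads could be assigned. Of the 50-base words of the Ly6c1 transcript, the length of 1 sequencing read, 36.7% occurred exactly in a transcript of another gene, and 99.5% lay within 3 mismatches of another Ly6 gene, mostly Ly6c2. For Ly6a these shares were 8.05% and 42.1%. For Ly6e they were 0% and 1.93%, and Ly6h had no such word in either count. How far reads of related genes enter the levels of Ly6c1 and Ly6a was not tested. RefSeq promoters were in the table used here for Ly6c1 and not for Ly6a, Ly6e and Ly6h.

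Levels are FPKM, fragments scaled by transcript length and by the mapped fragments of the library, which can be compared between genes. Ly6h was the most abundant member, at 194 ± 53.8 FPKM (mean and SD over all mice with a strain), above 98.5% of all genes. Ly6e had 47.6 ± 8.94 FPKM, Ly6c1 24.6 ± 4.94 FPKM and Ly6a 14.7 ± 7.03 FPKM. The gene with the lowest mean had the widest range relative to it: single mice ran from 1.56 to 61.9 FPKM for Ly6a, from 10.4 to 58.0 for Ly6c1, from 30.5 to 151 for Ly6e and from 134 to 927 for Ly6h.

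2 libraries stood apart and set several of these upper ends. Mouse 2 of BXD-12/TyJ and mouse 3 of CXB-3/ByJ had summed gene FPKM of 792801 and 463433, against 322047 to 359916 in the other mice. Their excess lay in genes with short transcripts. Relative to their strain mates, genes whose longest transcript is under 1000 bases had a median ratio of 3.86 and 1.92, and genes of at least 4000 bases 0.708 and 0.801. All members were high in both: in the BXD-12/TyJ mouse Ly6a was at 3.06 times its strain mates, Ly6c1 at 1.61, Ly6e at 3.20 and Ly6h at 5.13 times, and in the CXB-3/ByJ mouse the ratios were 3.45, 1.95, 1.93 and 2.14. Without these 2 mice the highest values were 41.1 FPKM for Ly6a, 38.5 for Ly6c1, 81.5 for Ly6e and 301 for Ly6h. They were kept in the main fit, and values without them are given where a call changes.

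Markers of hypothalamus (Hcrt, Pomc and 5 others, 7 of a list of 10) were above 0 in every library, with a median of their mean levels of 129 FPKM. The other 3 (Agrp, Oxt and Sim1) were not analysed here. Tissue next to the hypothalamus was present in part of the libraries: the summed FPKM of anterior pituitary markers exceeded 10 times its median in 40 libraries, that of choroid plexus markers in 69, and either in 97. Among the hypothalamus markers Pomc ran from 1.45 to 6851 FPKM over libraries, and the part of pituitary tissue in its level was not tested. In whole tissue, fewer cells of a type and less RNA per cell cannot be told apart.

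The first question is whether strains differ. For Ly6a, strain accounted for 0.863 of the variance of log2(FPKM + 1) between mice, the largest share of the members and well over the median of all genes, 0.222. The share is that of the variance between strains in the total, estimated from mean squares. For Ly6e it was 0.461, for Ly6c1 0.414 and for Ly6h 0.214. An F test of equal strain means (limma, Benjamini-Hochberg adjustment over all genes) was passed by all 4 members, with adjusted p = 8.1e-60 for Ly6a, 1.7e-12 for Ly6e, 2.2e-10 for Ly6c1 and 0.00070 for Ly6h. Of all genes 75.4% passed it, so the calls alone do not set the members apart. Without the 2 mice the shares were 0.891 for Ly6a, 0.655 for Ly6e, 0.422 for Ly6c1 and 0.367 for Ly6h, beside a median of 0.270 over all genes and 83.9% of genes called. The call of Ly6h was lost without the libraries high in pituitary or choroid plexus markers (adjusted p = 0.23).

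Among the 25 inbred strains Ly6a ran from 2.23 ± 0.247 FPKM in RIIIS/J (n = 3) to 24.6 in SJL/J, where the 2 mice had 19.1 and 30.0 FPKM, an 11.0-fold range. The 3 RIIIS/J mice had 2.35, 1.94 and 2.39 FPKM. CBA/J (2.50 ± 1.13), CE/J (2.60 ± 0.866), NON/LtJ (2.76 ± 0.791) and BALB/cJ (3.39 ± 0.466 FPKM, SD, n = 3 each) were at a similar low level. A/J and C3H/HeJ followed at 5.19 ± 1.03 and 5.56 ± 0.751 FPKM, then NZB/BlNJ (8.07 ± 2.74), SEA/GnJ (8.17 ± 2.01), I/LnJ (8.86 in its single mouse) and MA/MyJ (9.60 ± 0.786). The other 14 strains lay between 12.2 ± 0.559 FPKM in 129X1/SvJ and SJL/J. C57BL/6J was among them at 17.4 ± 0.384 FPKM, with 17.2, 17.1 and 17.8 in its mice, and so was DBA/2J at 20.6 ± 1.28.

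The levels rose by small steps. The largest gap between neighbouring strains, from BALB/cJ to A/J, was 1.70 times the residual SD between mice of a strain, and none of the 24 neighbouring pairs differed beyond that spread (limma, lowest adjusted p = 0.28). Strains further apart did differ: 163 of the 300 pairs of inbred strains, or 173 without the 2 mice, were called for Ly6a (adjusted p under 0.05, over all genes within each pair), where 5.72% of gene tests over all pairs were called. Against C57BL/6J, Ly6a was lower in 10 strains (RIIIS/J, CBA/J, CE/J, NON/LtJ, BALB/cJ, A/J, C3H/HeJ, NZB/BlNJ, SEA/GnJ and MA/MyJ) and higher in none.

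**Figure D1:**
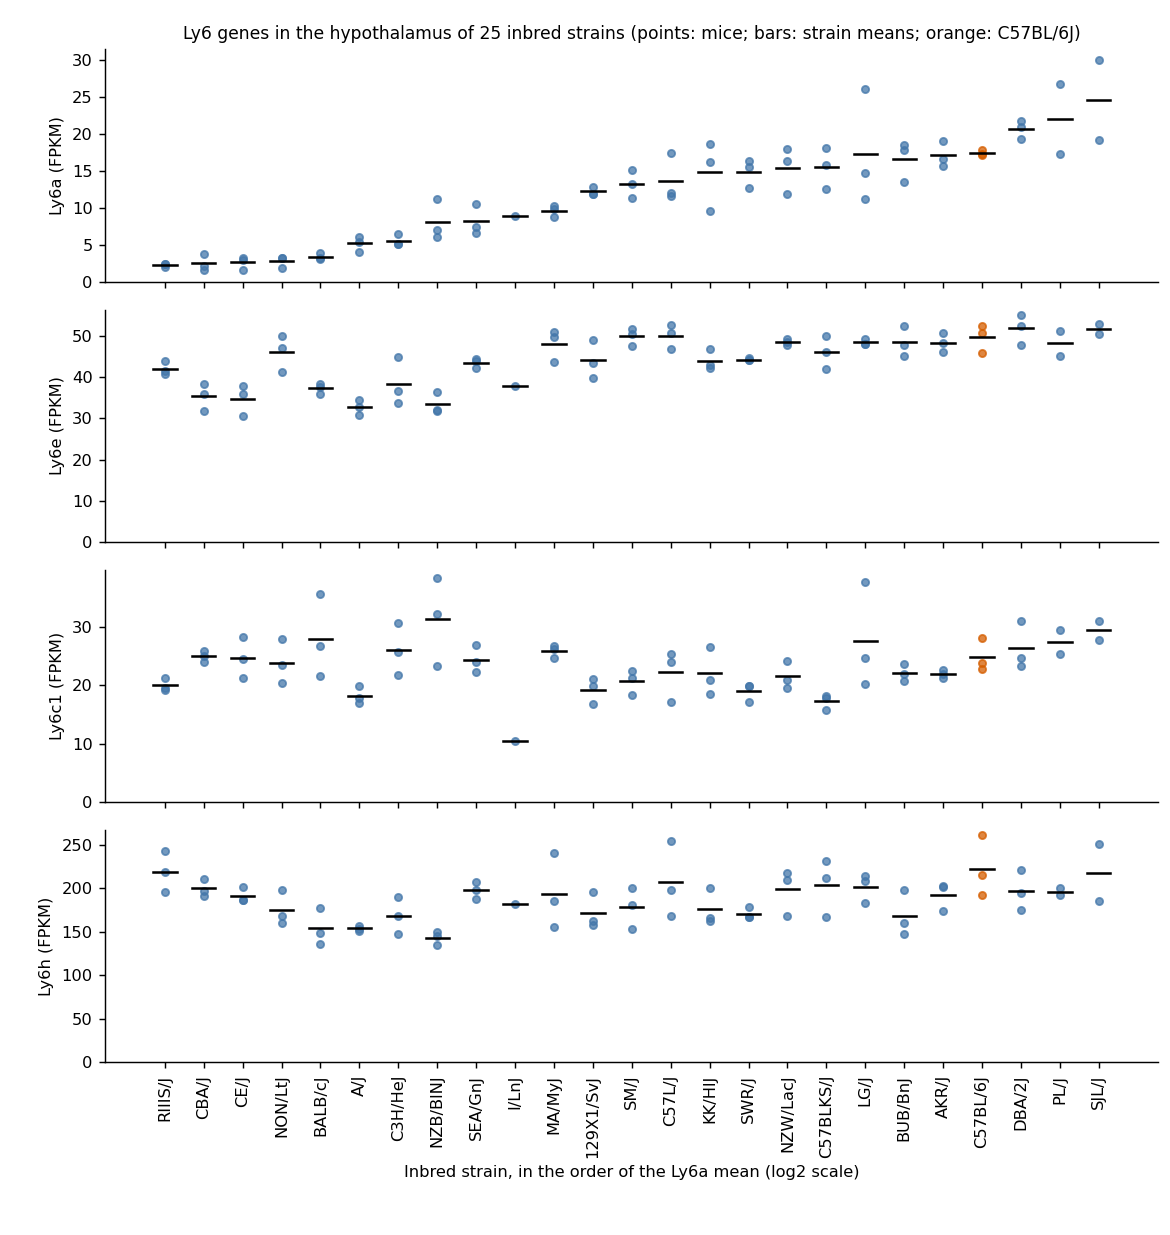
FPKM of Ly6a, Ly6e, Ly6c1 and Ly6h (vertical axes, from 0) in 25 inbred strains, ordered by their Ly6a mean on the log2 scale. Points are mice, black bars strain means, and C57BL/6J is in orange. Ly6a climbed from 2.23 FPKM in RIIIS/J to 24.6 in SJL/J, and most strains at its low end were also low in Ly6e, while NON/LtJ and RIIIS/J had 46.3 and 42.1 FPKM of it.

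Ly6e, the interferon-induced member, covered a narrower range, from 32.7 ± 1.87 FPKM in A/J to 51.9 ± 3.68 in DBA/2J, a ratio of 1.59. The mice of A/J had 32.7, 34.5 and 30.8 FPKM and those of C57BL/6J 52.4, 46.0 and 50.7, with no overlap. Against C57BL/6J, Ly6e was lower in A/J, NZB/BlNJ, CE/J, CBA/J and BALB/cJ, and each of these strains was also among those lower in Ly6a. The reverse did not hold throughout: NON/LtJ and RIIIS/J, at the bottom for Ly6a, had 46.3 ± 4.46 and 42.1 ± 1.68 FPKM of Ly6e. The test called 62 of 300 pairs for Ly6e, or 98 without the 2 mice, when C3H/HeJ also was lower than C57BL/6J and 7.96% of all gene tests were called. Its residual SD was 0.161 with all mice and 0.113 without them.

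Ly6c1, the brain endothelial member, ran from 10.4 FPKM in the single I/LnJ mouse and 17.3 ± 1.28 in C57BLKS/J to 31.3 ± 7.62 in NZB/BlNJ. With all mice I/LnJ was the 1 strain called lower than C57BL/6J, and that call rests on its single mouse. Without the 2 mice C57BLKS/J was called lower as well. NZB/BlNJ, the highest strain for Ly6c1, was low for Ly6a and the second lowest for Ly6e. For Ly6c1 46 of 300 pairs were called (57 without the 2 mice).

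Ly6h, the neuronal member, ran from 143 ± 7.82 FPKM in NZB/BlNJ to 222.4 ± 35 in C57BL/6J, which was its highest inbred strain. The 3 mice of C57BL/6J had 260.6, 191.8 and 214.8 FPKM, a wide spread. For Ly6h 2 of 300 pairs (0.667%) were called with all mice and 23 (7.67%) without the 2 mice, below the 5.72% and 7.96% of all gene tests over these pairs, and the strains lower than C57BL/6J rose from NZB/BlNJ alone to NZB/BlNJ, BALB/cJ, A/J and C3H/HeJ.

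Among the inbred strains the F test was passed by Ly6a (strain share 0.909, adjusted p = 2.8e-50), Ly6e (0.781, 9.5e-09) and Ly6c1 (0.520, 8.5e-08), where 47.8% of all genes passed. Ly6h, with a share of 0.334, had adjusted p = 0.14 (limma), and 0.00033 without the 2 mice (63.6% of all genes then passed), neither of which is an inbred mouse: they entered through the common residual spread.

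The parents of the recombinant sets were compared with C57BL/6J, with 3 mice in each and the C57BL/6J mice shared by all 4 comparisons. In A/J the Ly6a values of 6.09, 4.08 and 5.41 FPKM, in C3H/HeJ those of 5.13, 6.43 and 5.12, and in BALB/cJ those of 3.10, 3.92 and 3.14 all lay below the 3 C57BL/6J mice. The differences on the log2(FPKM + 1) scale, which understates the change of low genes, were -1.58 ± 0.234 (SE, limma, adjusted p = 1.6e-08), -1.49 ± 0.234 (1.1e-07) and -2.07 ± 0.234 (1.4e-13). Calls toward the lower side made up 4.94% of all genes in A/J, 3.71% in C3H/HeJ and 3.93% in BALB/cJ. DBA/2J, with 20.9, 19.2 and 21.8 FPKM, had a difference of 0.23 ± 0.234 that did not pass (adjusted p = 0.67). Its 3 values lay above all those of C57BL/6J, and 6.88% of all genes were called in that comparison.

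Ly6e differed in the same direction in the same 3 strains and by less. Its difference from C57BL/6J was -0.59 ± 0.131 in A/J (limma, adjusted p = 0.00045) and -0.40 ± 0.131 in BALB/cJ (0.040). In C3H/HeJ it was -0.37 ± 0.131 with adjusted p = 0.064, and 0.0021 without the 2 mice, when 10.3% of all genes were called there, 10.8% in A/J and 9.30% in BALB/cJ. For Ly6h the differences were -0.52 ± 0.187 in A/J, -0.53 ± 0.187 in BALB/cJ and -0.40 ± 0.187 in C3H/HeJ, none of which passed with all mice (adjusted p = 0.067, 0.071 and 0.21), while all 3 did without the 2 mice (0.0044, 0.0044 and 0.045). Ly6c1 did not pass in any of the 4: its difference was largest in A/J, at -0.43 ± 0.165 (adjusted p = 0.097), and within 0.14 of C57BL/6J in the other 3.

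Markers of anterior pituitary moved with some of these contrasts. Their mean log2 level was 0.602 ± 0.098 in C57BL/6J, 2.99 ± 0.509 in A/J, 3.15 ± 0.763 in C3H/HeJ, 0.999 ± 0.473 in BALB/cJ and 0.886 ± 0.247 in DBA/2J, so it was high in 2 of the 3 strains low in Ly6a. Without the 97 libraries high in pituitary or choroid plexus markers the Ly6a difference was -1.56 in A/J, -1.29 in C3H/HeJ and -2.05 in BALB/cJ. Mice of these parental strains were among the libraries left out, so the differences rest on fewer mice than those above. The Ly6e difference in BALB/cJ was then -0.39 and did not pass.

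**Figure D2:**
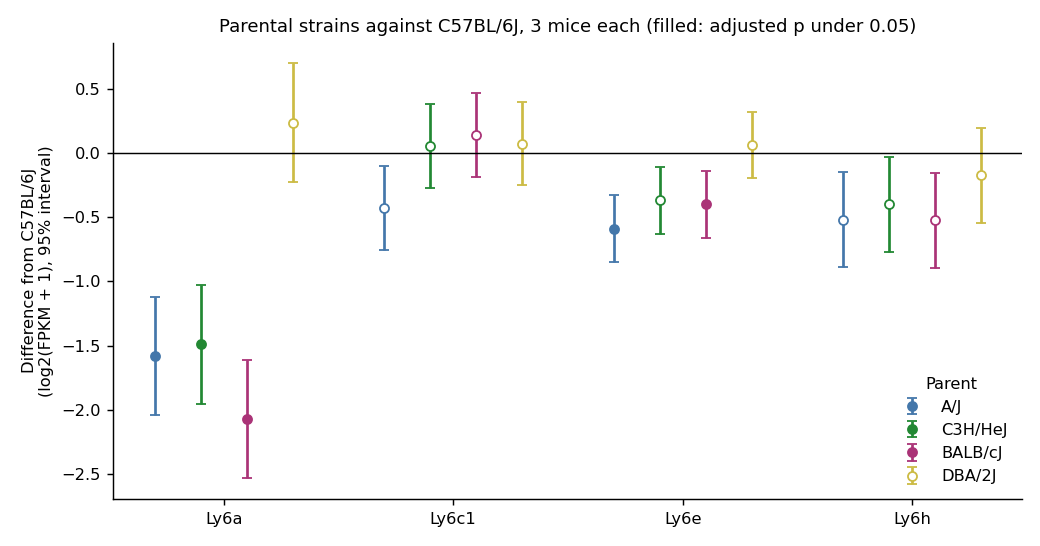
Difference of A/J, C3H/HeJ, BALB/cJ and DBA/2J from C57BL/6J in log2(FPKM + 1) (vertical axis) for each member, with 95% intervals from limma and 3 mice a strain. Filled points passed the test with all mice. Ly6a was 1.49 to 2.07 below C57BL/6J in A/J, C3H/HeJ and BALB/cJ, and at 0.23 above it in DBA/2J with an interval that includes 0.

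Where the parents differed in Ly6a, the recombinant strains fell into a low and a high class. In AXB/BXA 4 of the 18 strains were low (means with SD over 2 or 3 mice): AXB-6/PgnJ at 4.23 ± 0.0882 FPKM (mice 4.17 and 4.29), BXA-14/PgnJ at 5.98 ± 1.38, AXB-2/PgnJ at 5.99 ± 0.952 and BXA-8/PgnJ at 7.66 ± 1.96. The other 14 lay between 12.3 ± 1.68 in AXB-13/PgnJ and 19.0 ± 0.237 in BXA-24/PgnJ. The gap between BXA-8/PgnJ and AXB-13/PgnJ was 2.22 times the residual SD, and in each of the 17 strains with more than 1 mouse all mice lay on 1 side of the midpoint of the parents, 9.61 FPKM. The set differed by the F test (strain share 0.830, limma, adjusted p = 4.8e-14), where 22.5% of all genes did.

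In BXH 4 of 6 strains were low, with BXHA1 at 3.49 ± 1.13 FPKM, BXHB2 at 3.71 ± 0.528, BXH-19/TyJ at 6.25 ± 2.23 and BXH-9/TyJ at 6.49 ± 0.769, and 2 were high, BXH-6/TyJ at 12.9 ± 2.3 and BXH-4/TyJ at 16.7 ± 2.54. The gap between them was 3.07 residual SD, and in all 6 strains the mice stayed on 1 side of the parental midpoint of 9.95 FPKM. The strain share was 0.912 (limma, adjusted p = 3.3e-15), beside 18.6% of genes called in this set. BXHA1 and BXHB2 lay below C3H/HeJ, the lower parent, by more than 1 residual SD.

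In CXB, CXB-11/HiAJ (4.48 ± 1.02 FPKM), CXBH (4.91 ± 0.979) and CXB-6/ByJ (6.17 ± 0.366) were low and CXB-12/HiAJ (11.9 ± 2.47), CXB-13/HiAJ (14.1 ± 2.84) and CXB-7/ByJ (17.8 ± 4.96) were high. CXB-3/ByJ sat between them at 9.69 ± 7.60 FPKM, because its mice had 6.27 and 4.39 FPKM and, in the library that stood apart, 18.4. Without that mouse CXB-3/ByJ was low, the gap between the classes widened from 1.65 to 3.23 residual SD and the strain share rose from 0.665 to 0.862 (limma, adjusted p = 7.6e-14 and 1.3e-18). In this set 18% of all genes were called with all mice and 15.7% without the 2 mice.

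BXD, whose parents were not told apart in Ly6a, showed no such classes. Its 43 strain means formed a continuous series from 12.6 ± 2.18 FPKM in BXD44 to 34.1 ± 24.1 in BXD-12/TyJ, the strain of the other library that stood apart, whose mice had 21.3, 61.9 and 19.2 FPKM. Without that library the highest strain was BXD74 at 29.2 ± 10.5 FPKM. The largest gap was 0.484 residual SD, and in 19 of the 43 strains the mice fell on both sides of the parental midpoint. The parents lay 0.814 residual SD apart, within the spread between mice, so the count of 19 cannot speak to classes. Strains still differed, with a share of 0.403 (limma, adjusted p = 1.1e-05) where 64.5% of all genes were called. No BXD strain was as low as A/J, C3H/HeJ or BALB/cJ.

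**Figure D3:**
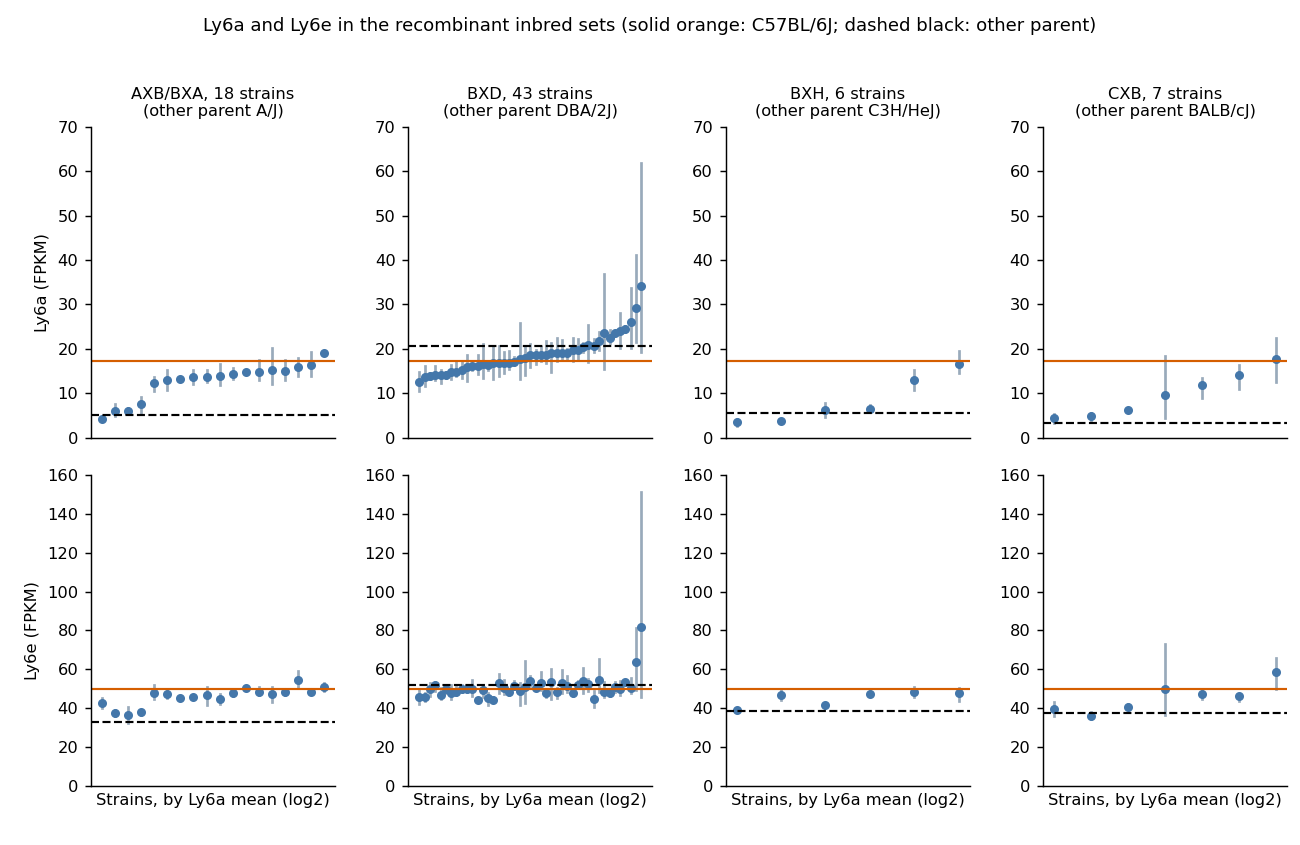
Strain means of Ly6a (top) and Ly6e (bottom) in FPKM, on axes from 0, for the 4 recombinant sets, with strains ordered by Ly6a mean and grey bars from the lowest to the highest mouse. The solid orange line is C57BL/6J and the dashed line the other parent. Ly6a splits into a low and a high class in AXB/BXA, BXH and CXB and not in BXD, and the tall bars in BXD-12/TyJ and CXB-3/ByJ are the 2 libraries that stood apart.

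Ly6e followed Ly6a in these sets in part. In AXB/BXA the 3 strains nearer to A/J in Ly6e, AXB-2/PgnJ (36.6 ± 5.85 FPKM), BXA-14/PgnJ (37.4 ± 1.73) and BXA-8/PgnJ (38.0 ± 1.23), were all among the 4 low in Ly6a. The fourth, AXB-6/PgnJ, came next at 42.8 ± 3.57 FPKM, and the remaining 14 ran up to 54.5 ± 6.15. In CXB the 3 strains nearer to BALB/cJ were the same for both genes (CXBH at 35.8 ± 2.03, CXB-11/HiAJ at 39.3 ± 3.68 and CXB-6/ByJ at 40.7 ± 1.36 FPKM of Ly6e), and CXB-3/ByJ joined them for both genes once that mouse was left out. In BXH the strains BXHA1 and BXH-19/TyJ were near C3H/HeJ in both genes, with 39.0 ± 0.411 and 41.4 ± 1.90 FPKM of Ly6e. BXHB2 and BXH-9/TyJ were low in Ly6a and had 47.0 ± 2.49 and 47.3 ± 1.25 FPKM of Ly6e, close to C57BL/6J, so the genes parted in 2 of the 4 strains low in Ly6a.

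The F test for Ly6e was passed in AXB/BXA (limma, adjusted p = 0.025) and CXB (0.00027) and not in BXH (0.43, or 0.059 without the 2 mice, when 29.2% of all genes passed). In AXB/BXA the call was lost when any 1 mouse of each strain was left out (0.16 to 0.43). In BXD it was passed at 0.036, although the strain share there was 0.0199 with all mice and 0.152 without the 2. The test takes its residual spread from the mice of all 99 strains, and the share from those of the set.

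Few of these low strains were also nearer to the other parent in Ly6c1 or Ly6h. None of the 4 AXB/BXA strains low in Ly6a was nearer to A/J in Ly6c1, and only AXB-2/PgnJ was nearer to A/J in Ly6h. In BXH 1 of the 4 strains low in Ly6a was nearer to C3H/HeJ in Ly6c1 (BXH-9/TyJ) and 1 in Ly6h (BXHA1). In CXB none of the 3 was nearer to BALB/cJ in Ly6c1 and 1 was in Ly6h (CXB-11/HiAJ). Without the 2 mice CXB-3/ByJ, then low in Ly6a, was nearer to BALB/cJ in both genes. C3H/HeJ and BALB/cJ had 26.0 and 28.0 FPKM of Ly6c1, against 24.9 in C57BL/6J. Nearness to them is thus no low level of Ly6c1, and they lay within 0.678 residual SD of C57BL/6J. Ly6c1 passed the F test in AXB/BXA (limma, adjusted p = 0.0082), BXD (0.0012) and CXB (1.8e-05), with BXA-24/PgnJ alone at the top of AXB/BXA at 36.5 ± 0.169 FPKM, above all other strains of its set (19.7 to 27.4). In CXB the highest strain of Ly6c1 was CXB-3/ByJ at 39.2 ± 17.1 FPKM, or 29.8 without the library that stood apart. Ly6h passed in BXD alone with all mice (0.00052), and also in AXB/BXA without the 2 mice (0.0023), when 35.0% of all genes passed in that set. Of 14 alternatives, 3 lost the call of Ly6c1 in AXB/BXA (highest adjusted p = 0.40, limma), 2 in BXD (0.34) and 2 in CXB (0.18), and 3 lost that of Ly6h in BXD (0.21). Its highest strain was BXD-12/TyJ with 429 ± 431 FPKM, where the mice had 182, 927 and 179. Without that library it was BXD-19/TyJ, at 284 ± 22.5, while the next BXD strain, BXD-24/TyJ, had 232 ± 17 FPKM.

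Correlations of strain means (log2 scale, permutation tests of 100000 resamples, 2-sided, adjusted over 36 relations of pairs and sets) were read only where the means form 1 series, which leaves the inbred strains and BXD for pairs with Ly6a. The permutations treat strains as exchangeable and take no account of their relatedness, so the p-values may be too small. The paper allowed for population structure with a kinship matrix in its mapping. In the 25 inbred strains Ly6a and Ly6e had r = 0.726 and rho = 0.784 (adjusted permutation p = 0.00094 and 0.00036), and r = 0.733 without the 2 strains farthest in Ly6a. In the 43 BXD strains the same pair had r = 0.588 and rho = 0.455 (adjusted permutation p = 0.00045 and 0.0099). There r fell to 0.360 without the 2 farthest strains, BXD-12/TyJ and BXD74, and was 0.467 without the 2 mice.

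Ly6a and Ly6c1 were correlated in BXD (r = 0.606, rho = 0.612, adjusted permutation p = 0.00045 and 0.00060), with r = 0.562 without the 2 farthest strains and 0.573 without the 2 mice. In the inbred strains r for this pair was 0.014. Ly6e and Ly6h had r = 0.564 and rho = 0.496 over the inbred strains (adjusted permutation p = 0.016 and 0.050), which became 0.340 without A/J and NZB/BlNJ. Over BXD they had r = 0.556 and rho = 0.472 (adjusted permutation p = 0.0044 and 0.0088), which became 0.410 without BXD-12/TyJ and BXD74, and 0.330 without the 2 mice, which did not pass (adjusted permutation p = 0.13). No pair without Ly6a passed in AXB/BXA, BXH or CXB. Over deviations of single mice from their strain mean, Ly6a and Ly6e had r = -0.071 among the inbred strains (adjusted permutation p = 0.59) and 0.633 in BXD (0.00018), or 0.436 without the 2 mice (0.00026). In CXB r was 0.855, or 0.539 without the 2 mice (adjusted permutation p = 0.029), and over all strains it was 0.490 and 0.267 (0.00026 without the 2 mice). In AXB/BXA and BXH it was 0.203 and 0.314 and did not pass. The permutations shuffled deviations over all mice, although those of a strain are tied by its mean. The p-values over deviations are therefore too small.

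At the transcript level Ly6a consisted almost wholly of its annotated 3-exon transcript, with 94.4% of the gene's FPKM. Its strain share was 0.853. The second transcript is an isoform that is not in the annotation, with 5 exons, and it made up 5.63%. It was listed at 0 in all mice of A/J and C3H/HeJ and in 2 of 3 mice of BALB/cJ (0.112 ± 0.193 FPKM), and stood at 0.945 ± 0.322 in C57BL/6J and 0.815 ± 0.612 in DBA/2J. It was at 0 in every mouse of 8 inbred strains (A/J, C3H/HeJ, CBA/J, CE/J, I/LnJ, NZB/BlNJ, RIIIS/J and SEA/GnJ). In AXB/BXA it was at 0 in every mouse of 4 strains, and these were the 4 that were low in the gene. Both transcripts were thus low in these strains, the annotated one with 16.1 ± 1.04 FPKM in C57BL/6J against 4.06 ± 1.68 in A/J, 3.74 ± 0.556 in C3H/HeJ and 2.58 ± 1.17 in BALB/cJ.

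Ly6c1 had 2 annotated transcripts of 4 exons. The major one held 88.3% of the gene, at 21.6 ± 3.08 FPKM in C57BL/6J, 17.6 ± 2.08 in A/J, 25.5 ± 4.62 in C3H/HeJ and 26.9 ± 6.41 in BALB/cJ. The minor one, 11.7% of the gene, was low in the strains low in Ly6a in AXB/BXA, BXH and CXB. In BXD the strains did not differ in it by the F test (strain share 0.120, limma, adjusted p = 0.15). Whether the minor transcript follows Ly6a there cannot be read from these strain means. It stood at 3.36 ± 0.792 FPKM in C57BL/6J and 4.17 ± 0.995 in DBA/2J, at 0 in every A/J mouse, at 0.513 ± 0.889 in C3H/HeJ (with 2 of 3 mice at 0) and at 1.09 ± 0.942 in BALB/cJ. In AXB/BXA it was lowest in the 4 strains low in Ly6a: 0 in AXB-2/PgnJ and AXB-6/PgnJ, 0.578 in BXA-8/PgnJ and 0.851 in BXA-14/PgnJ. AXB-19/PgnJ and AXB-15/PgnJ, which were high in Ly6a, were also nearer to A/J, at 1.17 and 1.21 FPKM, and the other 12 ran from 2.18 to 6.98. In BXH the 4 strains low in Ly6a had 0.000139 to 0.465 FPKM of it and the 2 high ones 3.93 and 4.06. In CXB the 3 low ones had 0.229 to 1.31 and the others 2.36 to 5.10 FPKM. In BXD, where strains did not pass the F test for it, its strain means ran from 0.822 FPKM in BXD68 to 7.53 in BXD60. BXD74, with 29.2 FPKM of Ly6a, had 2.48 of it and BXD56, with 21.8, had 0.923. BXD-16/TyJ had 7.49 at 15.3 FPKM of Ly6a. BXD-16/TyJ and BXA-24/PgnJ, the highest strains of the Ly6c1 gene in their sets (32.7 and 36.5 FPKM), were among its highest. These values are estimates of how reads of nearly identical transcripts divide, and how far reads of Ly6a or Ly6c2 enter them was not tested. The strain share of this transcript was 0.392 and that of the major one 0.360, and both passed the F test over 99 strains (limma).

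**Figure D4:**
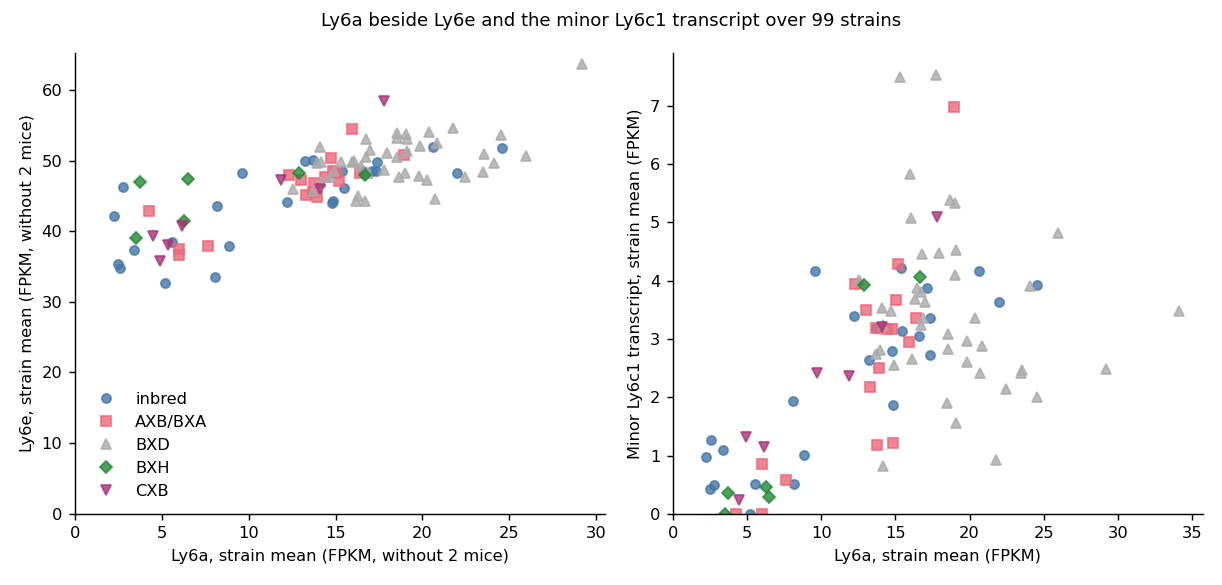
Strain means of Ly6e (left, without the 2 mice) and of the minor Ly6c1 transcript (right, all mice) against Ly6a, in FPKM on axes from 0, with 1 point for each of 99 strains and a symbol for each set. Strains under 10 FPKM of Ly6a had at most 1.94 FPKM of the minor Ly6c1 transcript except MA/MyJ and CXB-3/ByJ, at 4.17 and 2.41.

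Ly6e had 9 transcripts, of which 7 are isoforms that the annotation does not hold. Their estimates depended on the library. In 18 libraries (all mice of 6 strains, BXD-9/TyJ, BXD62, BXD70, BXD75, BXD85 and BXHA1, and 1 of BXD87) unannotated isoforms of all genes took 9.79% to 11.2% of the transcript FPKM, against 20.3% to 24.1% in the others, with none between. In these libraries the 7 isoforms of Ly6e took a median of 6.4% of the gene, against 51.8% in the others, with ranges of 0.00243% to 17% and 22.9% to 84% that did not overlap. The level of the gene was alike in both: in BXD its median was 48.3 FPKM in these libraries (43.4 to 59.5) and 49.3 in the others (40.4 to 151).

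**Figure D5:**
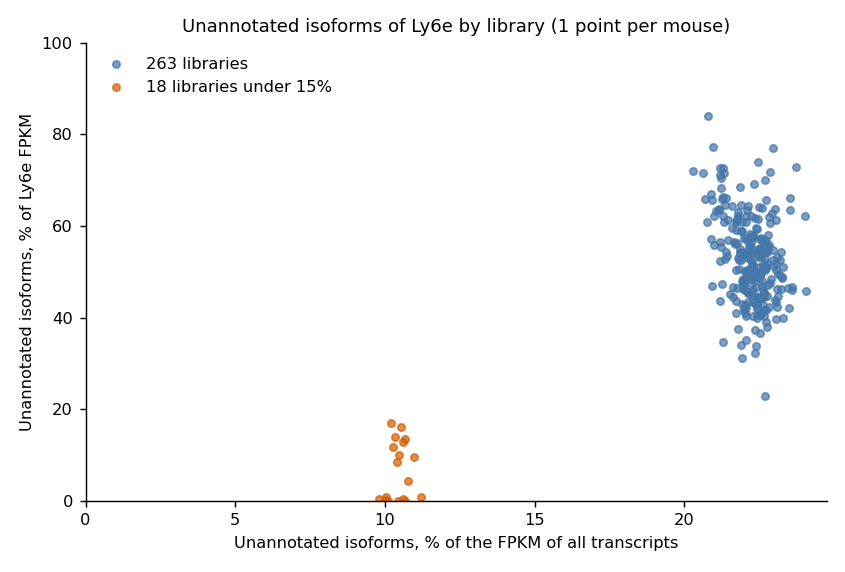
Unannotated isoforms as a percentage of Ly6e FPKM (vertical axis) against their percentage of the FPKM of all transcripts (horizontal axis), with 1 point for each mouse with a strain. The 18 libraries under 15% lie apart on both axes.

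The most abundant unannotated Ly6e isoform, with 17.8% of the gene, was under 0.01 FPKM in 17 of those 18 libraries and at a median of 8.39 FPKM in the others. Its strain share was 0.672 over 99 strains, and 0.181 without the 18 libraries (limma, adjusted p = 0.015). Within BXD it went from 0.770 to 0.163 (adjusted p = 0.11 without them). The annotated transcript of 5 exons moved the other way, with a median of 28.7 FPKM in the 18 libraries and 11.0 in the others, and the annotated transcript of 4 exons hardly moved (11.0 and 11.1 FPKM). So 13 of the 19 member transcripts passed the F test with all mice, where 46.8% of all transcripts did, and 9 passed without the 18 libraries, where 26.6% did. The 2 transcripts of Ly6a and the 2 of Ly6c1 passed in both.

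Ly6h had 6 transcripts. The main annotated one held 51.9% of the gene, at 116 ± 10.2 FPKM in C57BL/6J, 78.5 ± 8.99 in A/J, 83.3 ± 9.99 in BALB/cJ and 83.8 ± 2.34 in C3H/HeJ, with no overlap between C57BL/6J and these 3 strains. It passed the F test with all mice (strain share 0.171, limma, adjusted p = 0.012) and had 0.053 without the 18 libraries. A 5-exon annotated transcript of 18.3% of the gene passed in both (shares 0.233 and 0.248). The other 4 did not pass. Of the 8 transcription start sites of the members 7 passed, where 50.5% of all sites did, and all 5 coding sequences did, where 52.8% of all coding sequences did. Both counts are from all mice and were not repeated without the 18 libraries. Levels of these features are sums over the same transcripts.

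Of the 38 genes listed for the Ly6 and uPAR family, 6 besides the members were analysed here, and 5 of them (83.3%) passed the F test over strains, near the 75.4% of all genes that did. Lynx1, a neuronal modulator of nicotinic receptors at the edge of the same cluster (chr15:74747760-74753032), had 84.1 FPKM and a strain share of 0.565. Cd59a, which protects cells from complement, had 9.95 FPKM and a share of 0.874, about that of Ly6a, and its paralog Cd59b 0.536. Lypd1 and Lypd6b had 0.297 and 0.256, and Lypd6 did not pass (adjusted p = 0.067). The median share of the 6 was 0.417, beside 0.222 over all genes.

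Marker lists of the cells and responses in which the members are known were set beside them, chosen with earlier results of these data known. Of 22 listed endothelial genes 14 were analysed here, as were 13 of 25 interferon-stimulated genes and 6 of 13 nicotinic receptor subunits. All 14 endothelial genes passed the F test over strains (median share 0.375). So did all 13 interferon-stimulated genes (0.431) and all 6 nicotinic receptor subunits (0.284), where 75.4% of all genes passed. Against C57BL/6J, 1 of the 14 endothelial genes was lower in A/J, 2 in DBA/2J, 1 in C3H/HeJ and 1 in BALB/cJ, with none higher, and without the 2 mice 3, 2, 4 and 1 were lower. With all mice 4.94%, 3.58%, 3.71% and 3.93% of all genes were lower in these strains. Without the 2 mice 946, 748, 690 and 762 of all 14079 genes were lower. The median log2 difference of the endothelial genes was -0.17, -0.14, -0.16 and -0.17 in that order, beside -0.02, -0.01, 0.01 and -0.02 over all genes. Of the 13 interferon-stimulated genes 2 were lower and 1 higher in A/J, 5 were higher in DBA/2J, 1 was higher in C3H/HeJ and 1 lower in BALB/cJ, and without the 2 mice 6 were higher in DBA/2J and 2 lower in BALB/cJ. Their median difference was -0.23 in A/J and 0.67 in DBA/2J. Of all 14079 genes 432 were higher in A/J and 464 in DBA/2J with all mice. Without the 2 mice 624 were higher in DBA/2J. The mean log2 level of the endothelial genes was 3.18 ± 0.067 in C57BL/6J and 2.98 ± 0.078 in A/J, 3.03 ± 0.068 in C3H/HeJ, 3.02 ± 0.044 in BALB/cJ and 2.99 ± 0.066 in DBA/2J (SD, n = 3 each). All 4 other parents, DBA/2J with its high Ly6a included, lay below C57BL/6J. The interferon-stimulated genes stood at 2.40 ± 0.014 in C57BL/6J, 2.06 ± 0.101 in A/J, 2.44 ± 0.152 in C3H/HeJ, 2.3 ± 0.085 in BALB/cJ and 3.07 ± 0.097 in DBA/2J. Their highest parent was the highest for Ly6a and Ly6e as well, and C3H/HeJ, low in both, was at the level of C57BL/6J. How far endothelial content or an interferon response bears on the levels of the members was not tested.

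As a description over the 99 strain means, which share libraries and in which the 2 mice were left out, the interferon-stimulated genes had r = 0.500 with Ly6e, 0.412 with Ly6a, 0.261 with Ly6c1 and 0.154 with Ly6h. Over mice within strains the values for Ly6e and Ly6a were 0.493 and 0.366, and over the BXD strain means 0.578 and 0.574. The endothelial genes had r = 0.400 with Ly6a, 0.269 with Ly6c1, 0.273 with Ly6e and -0.042 with Ly6h. Over the BXD strain means r was 0.255, 0.296, 0.062 and -0.164 in that order. Over mice within strains it was 0.148, 0.192, -0.070 and -0.390. The low and high classes of Ly6a enter its values over 99 strains. Ly6h was lower where the thalamus markers were higher (r = -0.545) and higher where the hypothalamus markers were higher (0.416), and had r = -0.473 with the nicotinic receptor subunits and -0.348 with the neuronal markers. The part of neighbouring tissue in the level of Ly6h was not tested.

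The genes most like each member in their strain means (the 5 with the largest absolute r over 99 strains, without the 2 mice) included a neighbour on chromosome 15 for Ly6a and Ly6e alone, namely each other (r = 0.776). Ly6a was followed by Fam73a on chromosome 3 (r = -0.588), the predicted genes Gm4737 on 16 (-0.573) and Gm7292 on 6 (-0.566), and Pdzd7 on 19 (0.551). Ly6e was followed by Ifi35 on 11 (0.533), Fam73a (-0.530), Dtx3l on 16 (0.529) and Cmpk2 on 12 (0.524), and Ifi35, Dtx3l and Cmpk2 are known to be induced by interferon. For Ly6c1 they were Gjb6, a connexin of astrocytes, on chromosome 14 (0.535), Hip1 on 5 (0.526), Pnpla2 on 7 (0.510), Daam2 on 17 (0.509) and Cmtm3 on 8 (0.494). For Ly6h they were Syt5, a synaptotagmin of synaptic vesicles, on chromosome 7 (0.810), B630019K06Rik on X (0.783, and 0.404 with all mice), Blcap on 2 (0.766), Pcsk1n, an inhibitor of prohormone processing, on X (0.763) and Bmyc on 2 (0.750). The Ly6a means form classes in 3 sets, and these classes enter its r.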

How the data were processed

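Hypothalamus RNA of 282 male mice was sequenced by the study as unstranded 50-base read pairs. Per the labels and methods, the authors aligned reads of all strains to the C57BL/6J-derived mm10 genome by STAR (2.3.1). Transcripts were built per strain by Cufflinks (2.2.0) and merged with GENCODE annotation. The authors deposited FPKM per mouse, made by Cuffnorm (2.2.1), after removing low features. Read depth is not recoverable from these values, and the effect of strain variants on alignment was not tested. 1 mouse with conflicting strain labels entered no comparison.

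Values were analysed as log2(FPKM + 1) with limma 3.58.1 (R 4.3.3): strain means were fitted over all genes or transcripts, with F tests over strains or within a set, contrasts against C57BL/6J, and Benjamini-Hochberg adjustment over all features at 0.05. The fit was tested on simulated data. Sequences came from GRCm38 with GENCODE M21 and were aligned with Biopython 1.88. Named genes were the members, the family list and the 5 genes most like each member. Members, lists and rules were chosen with earlier results of these data known.

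Alternatives were quantile normalization, a pseudocount of 0.1, a mean FPKM minimum of 1, fits on 1 set alone, and leaving out replicates, marker-rich libraries or libraries that stood apart.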

Additional observations from a re-analysis of the deposited data

How the results depend on the processing

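Ly6a kept its direction and its side of the threshold in all 140 alternative results of the strain and parent tests. Ly6c1 did in 129 of 140, Ly6e in 120 and Ly6h in 114. No paired analysis was possible because mouse numbers name separate mice of a strain and pair no strains.

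Values below are adjusted p for sets of strains and log2 differences for parents. Quantile normalization brought Ly6h under the threshold in the inbred strains (0.00011), AXB/BXA (0.00010), CXB (0.034), A/J (-0.44), C3H/HeJ (-0.42) and BALB/cJ (-0.49), and Ly6e in C3H/HeJ (-0.39). Leaving out the BXD-12/TyJ library that stood apart did so for Ly6h in the inbred strains (0.0022), AXB/BXA (0.010), CXB (0.046), A/J (-0.52) and BALB/cJ (-0.53), and for Ly6e in C3H/HeJ (-0.37). Leaving out the CXB-3/ByJ library, chosen after seeing the data, did so for Ly6e in C3H/HeJ alone (-0.37). Leaving out both, also chosen after seeing the data, did so for Ly6h in the inbred strains (0.00033), AXB/BXA (0.0023), A/J (-0.52), C3H/HeJ (-0.40) and BALB/cJ (-0.53) and for Ly6e in C3H/HeJ (-0.37). Pairs of inbred strains then called were 98 for Ly6e and 23 for Ly6h, and r of Ly6e with Ly6h in BXD fell to 0.330, which did not pass.

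Without the libraries high in pituitary or choroid plexus markers, which also leaves fewer mice, these lost their call: Ly6h over 99 strains (0.23), Ly6c1 and Ly6e in AXB/BXA (0.098 and 0.96), Ly6c1, Ly6e and Ly6h in BXD (0.11, 0.33 and 0.14), Ly6e in CXB (0.068) and Ly6e in BALB/cJ (-0.39). The uncalled Ly6c1 difference in DBA/2J changed sign (-0.10). Fitted on the mice of the set alone, Ly6h passed in the inbred strains (0.0077) and AXB/BXA (0.00019), while Ly6e and Ly6h in BXD (0.47 and 0.075) and Ly6c1 and Ly6e in CXB (0.18 and 0.24) did not. Fitted on the inbred mice alone, Ly6h passed in A/J (-0.52) and BALB/cJ (-0.53) and Ly6e in C3H/HeJ (-0.37).

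Leaving out 1 replicate number at a time gave these ranges where a call or sign changed: Ly6c1 0.025 to 0.40 and Ly6e 0.16 to 0.43 in AXB/BXA, Ly6h 0.021 to 0.14 over 99 strains, Ly6c1 0.0013 to 0.34, Ly6e 0.015 to 0.49 and Ly6h 0.0030 to 0.21 in BXD, and Ly6c1 3.6e-05 to 0.098 in CXB. Differences ran from -0.68 to -0.53 for Ly6e in A/J, -0.46 to -0.34 for Ly6e in BALB/cJ, -0.36 to 0.030 for Ly6h and -0.0019 to 0.15 for Ly6e in DBA/2J, and for Ly6c1 from -0.099 to 0.14 in C3H/HeJ, -0.10 to 0.24 in DBA/2J and -0.10 to 0.39 in BALB/cJ. Member transcripts called ranged from 8 to 10, against 13.

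Over deviations of mice from their strain mean, r in the inbred strains was 0.412 for Ly6a with Ly6c1, which passed, and had the opposite sign to that of the strain means for Ly6a with Ly6e (-0.071) and Ly6h (-0.453) and for Ly6c1 with Ly6e (-0.042) and Ly6h (-0.238). In BXD, Ly6a with Ly6h (0.435), Ly6c1 with Ly6e (0.364) and Ly6c1 with Ly6h (0.262) passed over deviations with all mice and not without the BXD-12/TyJ library (0.072, 0.189 and 0.018). Ly6a with Ly6h (0.477) and Ly6c1 with Ly6e (0.361) passed over FPKM means. The p-values behind the calls over deviations are too small, because deviations of a strain are tied by its mean. The causes were not tested.

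Over all alternatives the genes called ran from 6363 to 11813 over 99 strains (10617 in the fit as reported), 3835 to 8949 in the inbred strains (6728), 1306 to 4928 in AXB/BXA (3163), 4162 to 9844 in BXD (9080), 898 to 4106 in BXH (2613), and 584 to 4159 in CXB (2531), and transcripts from 12475 to 26404 (23889). Against C57BL/6J the share of all genes called ran from 4.16% to 11.5% in A/J (8.01%), 3.77% to 11.0% in DBA/2J (6.88%), 2.66% to 11.5% in C3H/HeJ (7.59%) and 3.49% to 9.84% in BALB/cJ (6.79%).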

Other observations

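1 mouse carried conflicting labels: its title names AXB-8/PgnJ and its strain label AXB-6/PgnJ. It had 15.8 FPKM of Ly6a, 24.6 of Ly6c1, 49.6 of Ly6e and 185 of Ly6h, and unannotated isoforms held 21.7% of its transcript FPKM. It was placed in neither strain.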
